A study of Homo sapiens with 6 samples.

Results

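The ubiquitin-specific proteases, the USP genes, are the largest family of human enzymes that take ubiquitin off other proteins. Members were the protein-coding genes whose symbol is USP followed by a number, with or without an X, which left 50 of the 78932 gene identifiers in the files. Pseudogenes, USP17-like genes and Y-linked genes were not counted, and USP41, which matched the pattern but is a pseudogene in RefSeq, was left out. The family was chosen by the log2 fold change of USP53, the largest rise among protein-coding genes with a mean of at least 5 CPM (read counts scaled to library size by TMM) over the 6 libraries, so the values of USP53 are a description and carry no test. The other 49 members were included by name, whatever their values, and their calls are likewise given as a description of 1 fit across all genes.

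RNA was sequenced from Karpas-45, an established human T-cell leukemia line that carries a KMT2A-FOXO4 fusion and is labelled as leukemic blasts from bone marrow. The MEF2C hairpin group held 3 libraries of cells given a lentiviral short hairpin RNA against MEF2C with a GFP tag (shMEF2CKD2, genotype label MEF2C KD), and the scramble group held 3 libraries labelled scramble control (genotype label WT). Both groups carry the treatment label untreated. The virus was made in HEK293T cells and cells with GFP were sorted 120 hours after transduction, in a text that describes the MEF2C hairpin and not the scramble construct. The labels call the libraries technical replicates, so that every SD, SE and call below measures only the spread between such replicates of 1 line and 1 hairpin.

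Gene reads per library ran from 45560303 to 97077335. MEF2C itself received 2, 0 and 0 reads in MEF2C hairpin replicates 1 to 3 and 2, 1 and 0 reads in scramble replicates 1 to 3. That is at or under the floor of 3 reads in every library, and the knockdown could not be checked against the labels. MEF2C hairpin replicate 3 stood apart in its reads that aligned to more than 1 place, 16.1% of all its reads against 3.56 to 6.86% in the other 5 libraries. Of the 9 T-lineage markers 7 were higher and 0 lower, while of all tested genes 13.5% were higher and 15.3% lower. The 9 summed to 3028 to 3122 CPM in MEF2C hairpin libraries and to 2849 to 2935 CPM in scramble libraries. The 4 B-lineage markers summed to 3.04 to 3.30 CPM in MEF2C hairpin and 2.17 to 2.87 CPM in scramble libraries, with MS4A1 and PAX5 at 0 or 1 read in each library, and the 5 myeloid markers to 1.45 to 2.25 CPM in MEF2C hairpin and 1.49 to 1.91 CPM in scramble libraries. The 2 erythroid markers summed to 0.573 to 1.58 CPM in MEF2C hairpin and 0.5004 to 5.69 CPM in scramble libraries. Of the 3 embryonic kidney markers 2 were higher (GPC3 and PODXL) and 1 lower (CRABP2), beside 13.5% and 15.3% of all tested genes. They summed to 26.0 to 27.1 CPM in MEF2C hairpin and 23.9 to 25.6 CPM in scramble libraries. Most of this was PODXL, at 24.05 ± 0.868 CPM in MEF2C hairpin and 21.64 ± 0.420 CPM in scramble libraries (SD, n = 3 each). In the same order GPC3 averaged 0.660 and 0.341 CPM, and CRABP2 2.04 and 2.93 CPM. The part of these markers in the values of the USP members was not tested.

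Ubiquitin is joined to proteins by E1, E2 and E3 enzymes, and a deubiquitinase cuts it off again, which can spare a protein from the proteasome or end a signal that the ubiquitin carried. Most USP members do so with a catalytic cysteine, while a few, such as the splicing factor USP39, lack activity. USP53 was long counted among the inactive ones, and it is known for its link to tight junctions and for an inherited cholestatic liver disease caused by its loss.

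USP53 (ENSG00000145390.12) spans bases 119212587 to 119295517 of chromosome 4 (GRCh38, plus strand). Its reads numbered 662, 1059 and 550 in MEF2C hairpin replicates 1 to 3, against 141, 72 and 125 in scramble replicates 1 to 3. Scaled for depth this was 11.2, 10.7 and 10.6 CPM in MEF2C hairpin libraries and 2.26, 1.61 and 2.09 CPM in scramble libraries. The lowest MEF2C hairpin library thus lay far above the highest scramble library, and libraries of 1 group lay close together. The means were 10.8 ± 0.287 CPM in MEF2C hairpin and 1.99 ± 0.335 CPM in scramble libraries (SD, n = 3 each), a 5.38-fold difference (log2 fold change 2.43, SE 0.111, 95% interval 2.20 to 2.65). The value ran from 2.32 to 2.53 over the 13 alternative settings, which reuse the libraries that USP53 was chosen from. Among all 17677 tested genes its rise ranked 8, and among the 9457 protein-coding genes with a mean of at least 5 CPM it ranked 1, which is the value it was chosen by. It reached that mean through the MEF2C hairpin libraries.

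The promoter of USP53 is shown to set it beside those of USP40 and USP10, the other members that were higher. Each runs from 250 bases before to 50 bases after the RefSeq start in GRCh38.p14, at chr4:119212463-119212762 on the plus strand, chr2:233566733-233567032 on the minus strand and chr16:84699750-84700049 on the plus strand. Capitals mark GGGCGG (the GC box), CCAAT and CCGGAAG (an ETS-type core), on either strand.
USP53: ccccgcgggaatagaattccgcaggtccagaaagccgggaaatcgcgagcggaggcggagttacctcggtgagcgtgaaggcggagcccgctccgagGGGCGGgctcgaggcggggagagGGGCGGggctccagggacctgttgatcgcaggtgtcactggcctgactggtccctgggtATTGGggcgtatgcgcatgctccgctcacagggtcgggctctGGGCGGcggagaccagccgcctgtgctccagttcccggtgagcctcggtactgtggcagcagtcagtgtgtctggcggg
USP40: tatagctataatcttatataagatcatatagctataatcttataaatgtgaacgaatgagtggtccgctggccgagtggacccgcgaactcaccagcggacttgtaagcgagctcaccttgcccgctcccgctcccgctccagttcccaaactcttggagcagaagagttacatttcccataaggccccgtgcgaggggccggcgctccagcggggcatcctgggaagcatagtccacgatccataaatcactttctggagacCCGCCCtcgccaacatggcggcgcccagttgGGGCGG
USP10: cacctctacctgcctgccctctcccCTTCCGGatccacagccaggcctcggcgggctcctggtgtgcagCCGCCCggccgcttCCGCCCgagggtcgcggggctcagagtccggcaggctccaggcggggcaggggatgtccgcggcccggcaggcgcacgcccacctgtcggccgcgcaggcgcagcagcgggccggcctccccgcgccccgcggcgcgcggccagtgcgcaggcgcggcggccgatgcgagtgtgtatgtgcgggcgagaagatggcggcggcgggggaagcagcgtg
The USP53 promoter has 28 CG pairs and is 68.3% G or C, with GC boxes and 1 CCAAT box read on the other strand. USP40 has GC boxes and no CCAAT, and USP10 has GC boxes and the ETS-type core. None of these windows holds the MEF2 consensus (searched as a degenerate pattern, on both strands like the rest) or TGANTCA, the AP-1 core. RefSeq gave 53 promoters for 39 of the members. The GC box was in 71.7% of them and in 45% of all 35116 promoters, CCAAT in 24.5% and 34.6%, and the ETS-type core in 24.5% and 10.3%. The MEF2 consensus was in 1.89% of the members' promoters (1, that of USP13) and in 2.99% of all, and TGANTCA in 0 of them and in 7.71% of all. These are letter matches in windows of 300 bases and not sites.

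The closest relative of USP53 is USP54, another member long classed as inactive. It measured 26.5, 27.0 and 27.0 CPM in MEF2C hairpin libraries and 28.1, 25.9 and 27.7 CPM in scramble libraries, and the groups overlapped. Its log2 fold change was -0.02 (SE 0.0488, 95% interval -0.12 to 0.08), and the difference between USP53 and USP54 was not tested. An antisense gene covers 16.1% of the exonic bases of USP54, and no source used here gives the strand setting of the counting. Per kilobase of exon, USP53 stood at 0.906 RPKM in MEF2C hairpin and 0.166 RPKM in scramble libraries, and USP54 at 2.83 RPKM in MEF2C hairpin and 2.87 RPKM in scramble libraries. USP53 therefore stayed a low member in both groups, at rank 43 of 50 by level in MEF2C hairpin and rank 47 of 50 in scramble libraries. TJP1, a tight junction scaffold of the kind USP53 is linked to, received 0 reads in every library but scramble replicate 3, where it had 2.

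**Figure D1:**
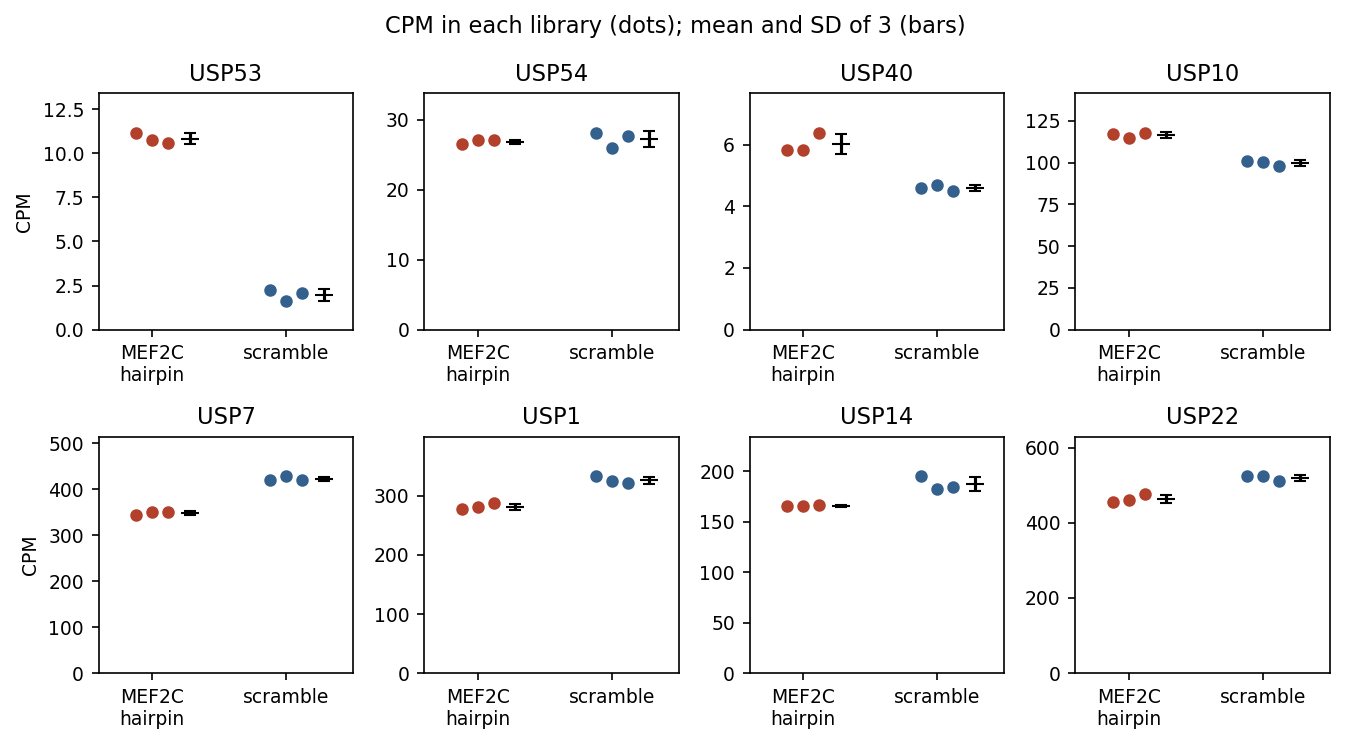
CPM of 8 USP members in each library, MEF2C hairpin (red, left) and scramble (blue, right), with the mean and SD of 3 libraries beside the dots; every vertical axis starts at 0. USP53 sits between 10.6 and 11.2 CPM in MEF2C hairpin and between 1.61 and 2.26 CPM in scramble libraries, while USP54 overlaps between the groups.

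No tested protein-coding gene around USP53 showed a change of that size. Within 500 kb, C4orf3, which starts 91.9 kb from the USP53 start and runs toward it on the minus strand, measured 124, 123 and 122 CPM in MEF2C hairpin and 115, 109 and 114 CPM in scramble libraries. It rose by 0.13 on the log2 scale (SE 0.0270, edgeR adjusted p = 0.000312), and its groups did not overlap. PDE5A, the cyclic GMP phosphodiesterase 416 kb downstream, measured 11.3, 10.9 and 11.2 CPM in MEF2C hairpin and 10.6, 10.2 and 10.2 CPM in scramble libraries, with groups apart (log2 fold change 0.11, SE 0.0737, edgeR adjusted p = 0.321). On the other side SYNPO2, an actin-binding gene, averaged 1.81 ± 0.303 CPM in MEF2C hairpin and 1.32 ± 0.234 CPM in scramble libraries (SD, n = 3 each), with overlapping groups. It gave 0.45 (SE 0.198, edgeR adjusted p = 0.0897), and it passed without scramble replicate 1 or MEF2C hairpin replicate 1 (adjusted p from 0.0408 to 0.261 over 13 alternatives). SEC24D, a coat protein of vesicles that leave the endoplasmic reticulum, and METTL14, a subunit of the RNA methyltransferase for m6A, gave -0.01 (SE 0.0394) and 0.03 (SE 0.0389). MYOZ2, a muscle sarcomere gene upstream, FABP2, an intestinal fatty acid binding protein gene beyond C4orf3, and MRPL42P1, a pseudogene that starts 0.057 kb from the USP53 start on the other strand, received 0 or 1 read in each library. Of the noncoding genes in the window, a lincRNA, ENSG00000260091, had 4, 3 and 8 reads in MEF2C hairpin and 0, 0 and 1 in scramble libraries. A snoRNA gene, ENSG00000221245, had 5, 3 and 5 reads in MEF2C hairpin and 0, 0 and 1 in scramble libraries. Both were too low to be tested, and at so few reads the lack of overlap between their groups carries no call. Another lincRNA, ENSG00000250950, was tested, with 16, 17 and 26 reads in MEF2C hairpin and 14, 8 and 11 in scramble libraries. Its groups overlapped in CPM, and it did not pass (log2 fold change 0.61, SE 0.510, edgeR adjusted p = 0.416).

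**Figure D2:**
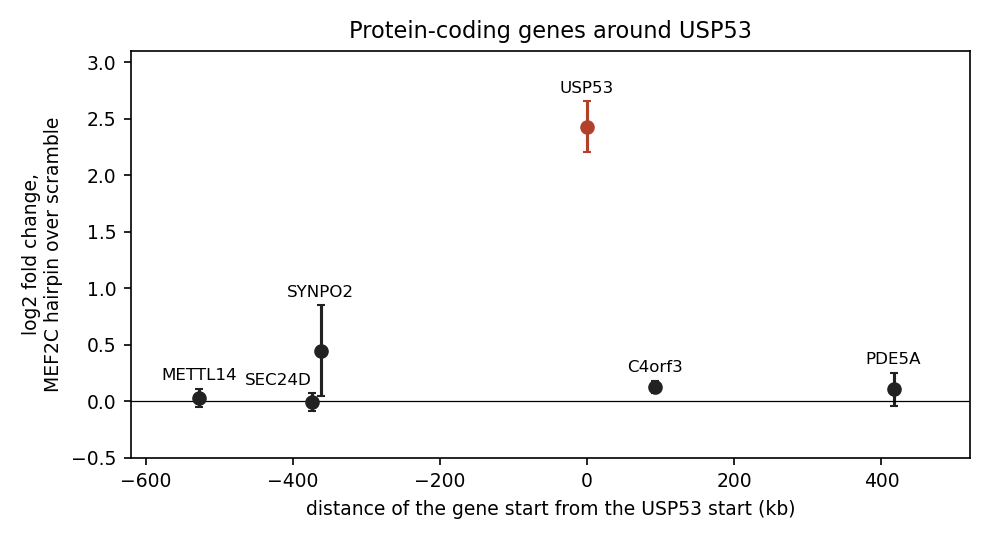
Log2 fold change (MEF2C hairpin over scramble) with its 95% interval for USP53 (red) and the tested protein-coding genes around it (black), against the distance of each gene's start from the USP53 start in kb. USP53 stands at 2.43, and the others lie between -0.01 and 0.45.

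Of the 50 members, 47 had enough reads to be tested and 3 did not. USP26, a testis gene, and USP29, an imprinted gene, received 0 reads in every library apart from 1 read of USP29 in scramble replicate 1. A count of 0 leaves room for up to 0.0309 to 0.0658 CPM, depending on the library (3 reads, counting error only). USP6, a hominoid gene that arose in part from USP32, had 2, 11 and 3 reads in MEF2C hairpin and 6, 7 and 10 reads in scramble libraries. Reads shared by near-identical copies can be left out in counting, so that USP6 and USP32, and USP18 and its copy USP41, are less certain than the rest. USP41 had 1, 3 and 0 reads in MEF2C hairpin and 0, 1 and 2 reads in scramble libraries.

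The rest of the family moved little. In the fit across all tested genes 20 of 47 members passed an adjusted p of 0.05 (42.6%), 3 higher and 17 lower in MEF2C hairpin libraries. Of all tested genes 28.8% passed, 13.5% higher and 15.3% lower, and of the 12162 tested protein-coding genes 37.1% passed, 16.3% higher and 20.8% lower. Leaving out USP53, 19 of 46 members passed, 2 higher and 17 lower. The 17 falls ranged from -0.28 to -0.09 on the log2 scale, and apart from USP53 no tested member had an absolute log2 fold change above 0.52. The median over the tested members was -0.06, against 0.00 over all tested genes. With USP53 counted, 1 of 47 passed with a change of at least 2-fold, against 1.46% of all tested genes (1.23% higher). Groups did not overlap in 26 of the 47, 6 of them higher and 20 lower, against 39.9% of all tested genes and 47.5% of tested protein-coding genes. In bulk RNA, fewer cells with a transcript and less of it per cell cannot be told apart.

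USP members are well expressed, with a median of 71.6 CPM over the tested members and 11.2 CPM over all tested genes, and calls went lower more often among highly expressed genes. Of the 16 members with a mean of at least 100 CPM, 11 were lower and 1 higher with a median of -0.11, whereas of all 2547 tested genes at that level 44.9% were lower and 12.6% higher with a median of -0.05. Of the 21 members between 20 and 100 CPM, 5 were lower (23.8%) and 0 higher with a median of -0.03, and of all 5067 such genes 23.5% were lower and 17.0% higher with a median of -0.02. The part of expression level in these counts was not tested. Summed over the 50 members, the family took 4431, 4452 and 4497 CPM in MEF2C hairpin and 4813, 4795 and 4745 CPM in scramble libraries. The groups did not overlap in this sum, which averaged 4460 ± 33.7 CPM in MEF2C hairpin and 4784 ± 35.2 CPM in scramble libraries (SD, n = 3 each). USP53 made up 0.243 ± 0.00809% of it in MEF2C hairpin and 0.0415 ± 0.00698% in scramble libraries (SD, n = 3 each).

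**Figure D3:**
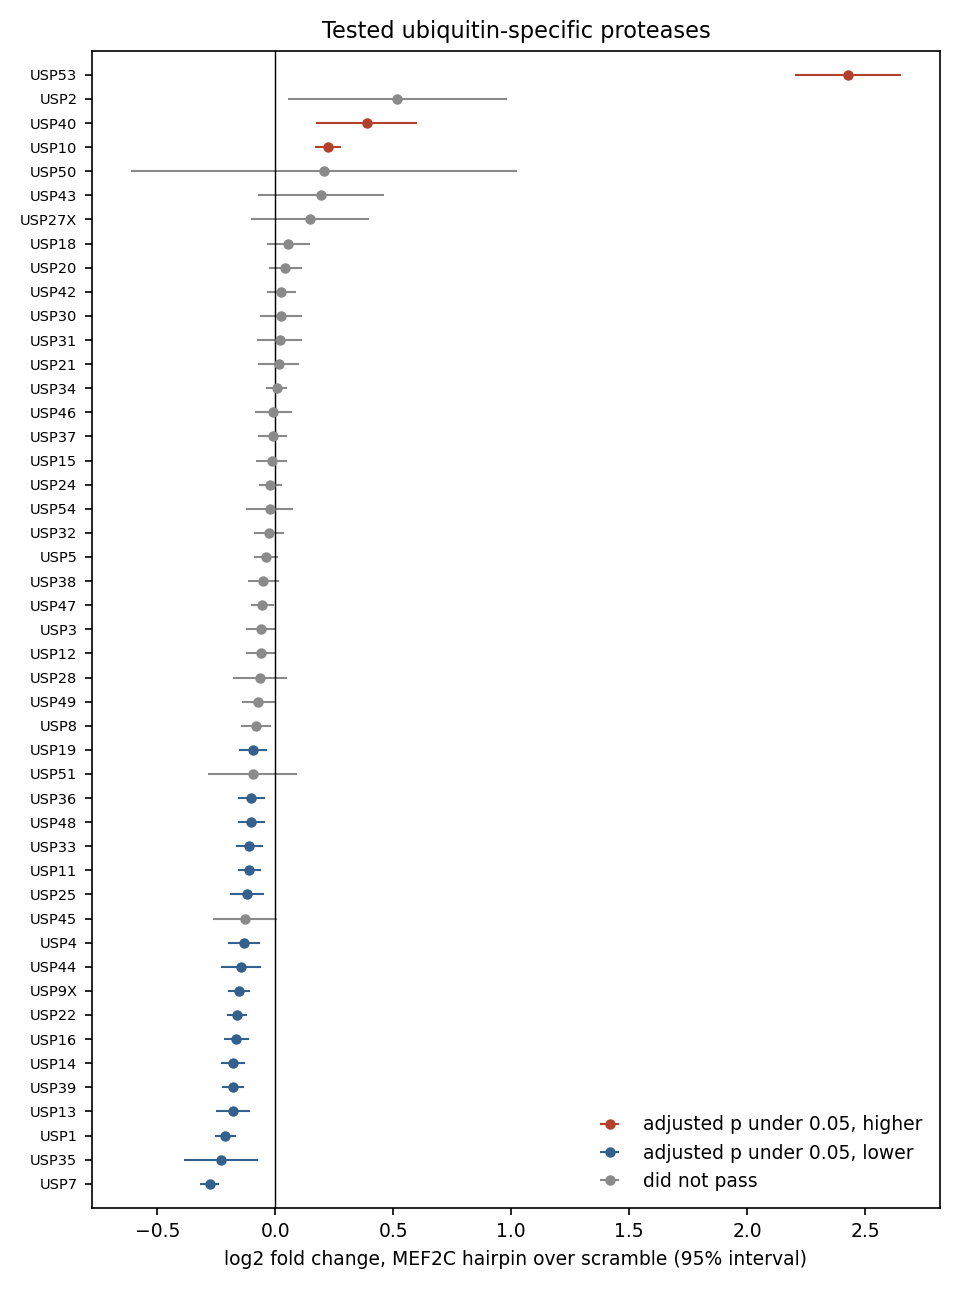
Log2 fold change (MEF2C hairpin over scramble) with its 95% interval for the 47 tested USP members, ordered by value; red and blue mark members past an adjusted p of 0.05 that were higher or lower, and grey those that did not pass. USP53 stands alone at 2.43, 17 members lie between -0.28 and -0.09 in blue, and most others lie near 0.

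The other 2 members that rose were USP40 and USP10. USP40, one of the less studied members, measured 5.81, 5.83 and 6.38 CPM in MEF2C hairpin and 4.59, 4.69 and 4.49 CPM in scramble libraries, so that the groups did not overlap (log2 fold change 0.39, SE 0.106, 95% interval 0.17 to 0.60). USP10, which binds the stress granule protein G3BP1 and can deubiquitinate p53, measured 117, 115 and 118 CPM in MEF2C hairpin and 101, 101 and 97.9 CPM in scramble libraries (0.22, SE 0.0271, 95% interval 0.17 to 0.28). Of the members with at least 100 CPM USP10 alone rose, with all 3 MEF2C hairpin libraries above all 3 scramble libraries. Both calls held in all 13 alternatives. G3BP1 itself stood at 419 ± 5.22 CPM in MEF2C hairpin and 448 ± 4.08 CPM in scramble libraries (SD, n = 3 each) and fell by 0.10 on the log2 scale (SE 0.0202, edgeR adjusted p = 0.000285). USP2, a low member, had 1.43, 1.59 and 1.29 CPM in MEF2C hairpin and 0.802, 0.807 and 1.40 CPM in scramble libraries, with overlapping groups, and at 0.52 (SE 0.230) did not pass. Of the 13 alternatives it passed in 1, without scramble replicate 3.

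USP7, which deubiquitinates MDM2 and p53, measured 345, 350 and 352 CPM in MEF2C hairpin and 421, 428 and 420 CPM in scramble libraries. This was the largest fall in the family (log2 fold change -0.28, SE 0.0205, 95% interval -0.32 to -0.24), and the groups lay well apart. USP1, which removes ubiquitin from FANCD2 and PCNA in DNA repair, measured 277, 281 and 287 CPM in MEF2C hairpin and 333, 325 and 321 CPM in scramble libraries (-0.21, SE 0.0219). USP22, the ubiquitin protease of the SAGA coactivator that acts on histone H2B, measured 456, 459 and 477 CPM in MEF2C hairpin and 523, 523 and 510 CPM in scramble libraries (-0.16, SE 0.0209). USP16, a histone H2A deubiquitinase, measured 115, 115 and 113 CPM in MEF2C hairpin and 130, 125 and 130 CPM in scramble libraries (-0.16, SE 0.0264). In each of these genes the highest MEF2C hairpin library lay below the lowest scramble library, and the calls held in all 13 alternatives. Antisense genes cover 13.2% of the exonic bases of USP22.

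USP39, which has no protease activity and works in the spliceosome, measured 193, 190 and 195 CPM in MEF2C hairpin and 217, 222 and 215 CPM in scramble libraries (log2 fold change -0.18, SE 0.0231). USP44, a regulator of the spindle checkpoint, measured 38.3, 38.1 and 39.3 CPM in MEF2C hairpin and 42.7, 40.8 and 44.2 CPM in scramble libraries (-0.15, SE 0.0416), and its call was lost without scramble replicate 3. USP36, a protease of the nucleolus, measured 92.5, 93.1 and 95.1 CPM in MEF2C hairpin and 99.5, 100.3 and 101 CPM in scramble libraries (-0.10, SE 0.0279). The groups stayed apart in all of these. USP51, related to USP22, averaged 7.10 ± 0.529 CPM in MEF2C hairpin and 7.55 ± 0.388 CPM in scramble libraries (SD, n = 3 each), with overlapping groups (-0.10, SE 0.0925). USP27X, another relative, averaged 4.31 ± 0.394 CPM in MEF2C hairpin and 3.89 ± 0.186 CPM in scramble libraries (SD, n = 3 each), also overlapping (0.15, SE 0.123). USP3 and USP49, also linked to histones, gave -0.06 (SE 0.0311) and -0.07 (SE 0.0348) and did not pass. An antisense gene covers 22.7% of the exonic bases of USP3.

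Among members tied to the proteasome or to free ubiquitin chains, USP14 and USP13 fell and USP5 did not pass. USP14, which trims ubiquitin on the proteasome, measured 165, 166 and 166 CPM in MEF2C hairpin and 195, 182 and 185 CPM in scramble libraries (log2 fold change -0.18, SE 0.0251), with groups apart. USP13 measured 53.6, 53.8 and 53.1 CPM in MEF2C hairpin and 61.9, 60.4 and 59.3 CPM in scramble libraries (-0.18, SE 0.0350), also apart. Its relative USP5, which takes apart unanchored ubiquitin chains, measured 175, 182 and 181 CPM in MEF2C hairpin and 182, 189 and 182 CPM in scramble libraries with overlapping groups (-0.04, SE 0.0244, 95% interval -0.09 to 0.01). PSMD2, the proteasome subunit on which USP14 docks, gave -0.05 (SE 0.0217, edgeR adjusted p = 0.0662).

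Among members with roles in signalling and survival, USP9X, known to stabilize MCL1, measured 170, 170 and 169 CPM in MEF2C hairpin and 190, 188 and 187 CPM in scramble libraries (log2 fold change -0.15, SE 0.0231), with the groups apart. USP4, USP11 and USP15 are paralogs, of which USP4 and USP11 fell by 0.13 (SE 0.0329) and 0.11 (SE 0.0241) on the log2 scale, while USP15 gave -0.02 (SE 0.0325, 95% interval -0.08 to 0.05). SART3, which binds USP4 and USP15, fell by 0.27 (SE 0.0275, edgeR adjusted p = 3.75e-10), at 106 ± 2.41 CPM in MEF2C hairpin and 128 ± 3.53 CPM in scramble libraries (SD, n = 3 each). USP25 and its paralog USP28, a stabilizer of MYC, gave -0.12 (SE 0.0352) and -0.06 (SE 0.0561), of which the first passed and the second did not. The call of USP25 was lost without scramble replicate 1. USP33 and its paralog USP20 gave -0.11 (SE 0.0280) and 0.04 (SE 0.0348), and USP33 alone passed. Both were first found as partners of VHL. Differences between paralogs were not tested.

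USP35 was the lowest-expressed member that fell. It measured 10.2, 10.2 and 9.31 CPM in MEF2C hairpin and 11.6, 10.9 and 12.5 CPM in scramble libraries (log2 fold change -0.23, SE 0.0768), and its call was lost without scramble replicate 3 or MEF2C hairpin replicate 3. USP19, an enzyme anchored in the endoplasmic reticulum, and USP48 completed the 17, at -0.09 (SE 0.0288) and -0.10 (SE 0.0275). The call of USP19 was lost without scramble replicate 2 and that of USP48 without MEF2C hairpin replicate 2.

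Members that did not pass included enzymes of the endosome, the mitochondrion and the interferon response. USP8 of the endosome, which lets receptors recycle, gave -0.08 (SE 0.0315) with overlapping groups, and passed without scramble replicate 3 or without MEF2C hairpin replicate 3. USP30 of the mitochondrial outer membrane measured 34.0, 34.4 and 33.3 CPM in MEF2C hairpin and 32.7, 33.7 and 33.6 CPM in scramble libraries (0.02, SE 0.0438, 95% interval -0.06 to 0.11). USP18, which removes the ubiquitin-like protein ISG15 and restrains the interferon receptor, measured 32.6, 32.7 and 33.0 CPM in MEF2C hairpin and 30.3, 32.2 and 32.2 CPM in scramble libraries. The MEF2C hairpin libraries of USP18 lay just above the scramble ones, and it did not pass (0.06, SE 0.0452, 95% interval -0.04 to 0.15). USP12 and USP46, which share the activator WDR48, gave -0.06 (SE 0.0313) and -0.01 (SE 0.0385), and the giant members USP34 and USP24 gave 0.01 (SE 0.0217) and -0.02 (SE 0.0240). The other 10 members that did not pass (USP21, USP31, USP32, USP37, USP38, USP42, USP43, USP45, USP47 and USP50) had log2 fold changes from -0.13 (USP45) to 0.21 (USP50). USP45 and USP47 lay lower in every MEF2C hairpin library than in any scramble library, and USP43 higher. Genes on the other strand also cover 32.8% of the exonic bases of USP37, 28.6% of USP50, 18.0% of USP34 and 17.5% of USP2, and genes on either strand cover 23.0% of USP31.

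**Figure D4:**
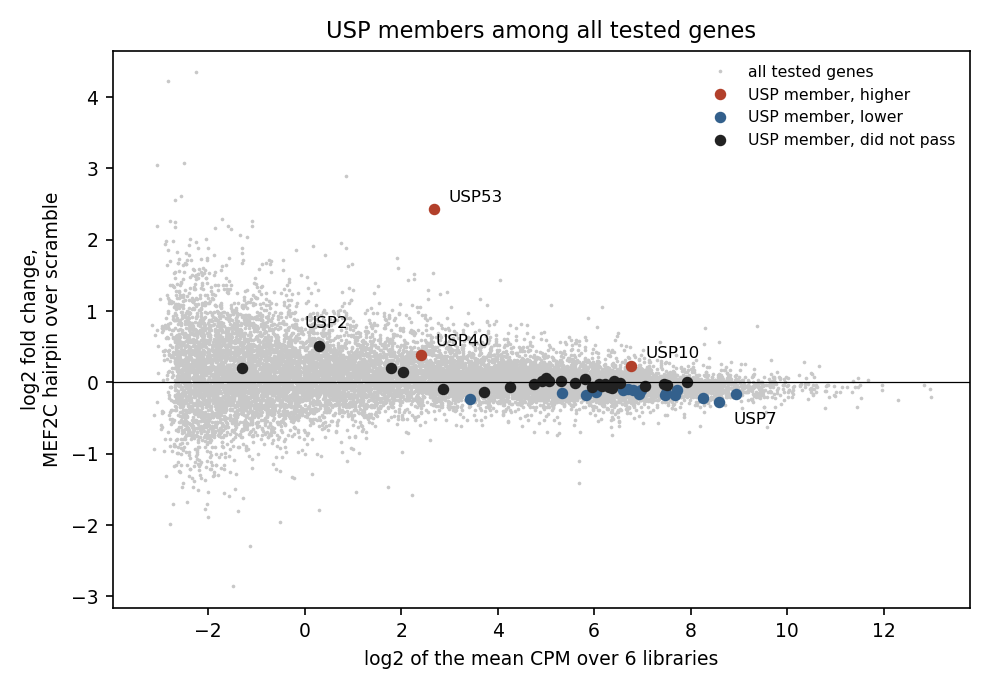
Log2 fold change (MEF2C hairpin over scramble) against the log2 of the mean CPM over 6 libraries, for all 17677 tested genes (grey) and the 47 tested USP members (red higher, blue lower, black did not pass). USP53 stands at 2.43, apart from the other members, and the members of at least 100 CPM lie mostly below 0.

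Per kilobase of exon the levels spanned a wide range. In MEF2C hairpin libraries USP22 and USP1 stood at 68.1 ± 1.63 and 66.1 ± 1.19 RPKM, and in scramble libraries at 76.2 ± 1.12 and 76.5 ± 1.41 RPKM (SD, n = 3 each). USP22 lay above USP1 in each MEF2C hairpin library, and their order was mixed among scramble libraries. USP39, USP5 and USP7 followed, at 48.8 ± 0.648, 48.0 ± 1.01 and 43.8 ± 0.450 RPKM in MEF2C hairpin and 55.2 ± 0.937, 49.3 ± 1.07 and 53.1 ± 0.583 RPKM in scramble libraries (SD, n = 3 each). USP39 and USP5 did not differ beyond their spread in MEF2C hairpin libraries. USP5 lay above USP7 in MEF2C hairpin libraries and below it in scramble libraries. The lowest tested members were USP50, USP2 and USP43 beside USP53 and USP40, all under 1 RPKM in both groups.

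The hairpin's own sequence was also compared with the members. Its target site in MEF2C, taken from the series text, is shown with the 7 bases in capitals that pair with the seed (bases 2 to 8) of a guide strand complementary to it.
MEF2C target: cccaatgaatttaGGAATGAa
The whole site matched transcripts of MEF2C and of 0 other genes in GENCODE 29. GGAATGA occurred in the 3' UTR of 5 of the 47 tested members, USP8, USP13, USP31, USP46 and USP47, and of these USP13 alone fell. USP53 had no such match. The 3' UTR searched for each gene was that of its transcript with the longest coding sequence. Over all tested protein-coding genes with a 3' UTR, 25.5% of the 1223 with GGAATGA in it were lower with a median of -0.03. Of the 10673 without it 20.3% were lower, with a median of -0.01. These shares were not matched for 3' UTR length, and the part of the seed in them was not tested.

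Most calls among genes of other deubiquitinase families and USP-like genes were falls. These genes were listed by family or fold, and whether each of them cuts ubiquitin was not checked. Of 38 genes of the UCH, OTU, Josephin, JAMM, MINDY and ZUFSP families and of USP-like genes with other names, 33 were tested, 3 rose and 10 fell (39.4%, against 28.8% of all tested genes and 37.1% of tested protein-coding genes), with a median of -0.07, against 0.00 over all tested genes. MINDY2, which prefers long ubiquitin chains, had the largest fall past the threshold, at 58.4 ± 0.400 CPM in MEF2C hairpin and 83.3 ± 3.86 CPM in scramble libraries (SD, n = 3 each). Its log2 fold change was -0.51 (SE 0.0341, edgeR adjusted p = 8.63e-15). CYLD, a tumor suppressor with a USP fold that restrains NF-kB, averaged 32.4 ± 0.0706 CPM in MEF2C hairpin and 39.7 ± 2.31 CPM in scramble libraries (SD, n = 3 each), and fell by 0.29 on the log2 scale (SE 0.0451, edgeR adjusted p = 3.05e-06). The OTU enzymes ZRANB1, OTUD4 and OTULIN fell by 0.20, 0.17 and 0.14 on the log2 scale (edgeR adjusted p = 2.35e-05, 9.52e-06 and 8.56e-05). All 5 calls held in the 13 alternatives.

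Binding partners of the family went both ways, 3 higher and 4 lower of 15 tested among 16 (46.7% called, against 28.8% of all tested genes and 37.1% of tested protein-coding genes), with a median of -0.03. GMPS, the partner of USP7, fell by 0.09 (SE 0.0240, edgeR adjusted p = 0.00574) and ENY2, which sits beside USP22 in SAGA, rose by 0.12 (SE 0.0320, edgeR adjusted p = 0.00282). The first call was lost without MEF2C hairpin replicate 2 (adjusted p of 0.0581, the highest over 13 alternatives, whose lowest was 0.00384) and the second without scramble replicate 3 (0.0524, against 0.00100 at the lowest). STAM2, which works with USP8 on endosomes, gave 0.12 (SE 0.0392, edgeR adjusted p = 0.0161), and that call was lost without scramble replicates 2 or 3 or MEF2C hairpin replicate 1. The partner count fell to 4 without scramble replicate 2, scramble replicate 3 or MEF2C hairpin replicate 2.

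Of 10 ubiquitin, E1 and ISG15 pathway genes, all tested, 5 rose and 2 fell, with a median of 0.09. Of all tested protein-coding genes 16.3% were higher and 20.8% lower. HERC5, the ligase that attaches ISG15, had the largest rise past the threshold, at 99.6, 100.1 and 100.5 CPM in MEF2C hairpin and 82.2, 84.7 and 85.7 CPM in scramble libraries. The groups lay apart, and the log2 fold change was 0.25 (SE 0.0288, edgeR adjusted p = 8.54e-09). ISG15 itself fell by 0.17 (SE 0.0600, edgeR adjusted p = 0.0288), a call that did not hold without a filter, without scramble replicate 2 or without any 1 of the MEF2C hairpin replicates (adjusted p of 0.0294 to 0.132 over 13 alternatives). UBA1, the main E1 enzyme, fell by 0.10 (SE 0.0217, edgeR adjusted p = 0.000399). The count of 7 fell to 4 without scramble replicate 2 and to 3 without MEF2C hairpin replicate 1.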

How the data were processed

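The authors deposited raw read counts per gene for 6 libraries of Karpas-45 RNA, 1 file per library. They used Trim Galore, STAR, HTSeq and build hg38, per the submitters' processing notes. Versions, annotation release and strand setting are not given in the sources used here. The 5 summary lines (19.2 to 31.4% of all reads) stayed out of library sizes and tests.

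Identifiers were matched to symbols (77.9% had one). GENCODE 29 on GRCh38 gave positions, 3' UTRs and exon lengths, and RefSeq (GRCh38.p14) gave promoters. Genes passed filterByExpr with a minimum count of 10 and TMM scaled the libraries. The model was the robust quasi-likelihood fit of edgeR 4.0.16 (R 4.3.3), with group as the only term. Adjusted p-values are Benjamini-Hochberg over 17677 genes, with a threshold of 0.05. The SE is the size of a log2 fold change divided by the root of its F statistic. RPKM is CPM per kilobase of merged exons, computed from the deposited counts. Replicates of a group differed by more than sampling noise (chi-square per gene of 3.31 to 4.46).

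Members and lists were chosen with earlier results of these data known. Per-library values are given for USP53, USP54, members past the threshold with the largest changes (up to 10 each way), the 5 highest by RPKM, and USP1, USP7, USP9X, USP14, USP18 and USP22, with some others chosen after their values were seen. Of the other lists, up to 5 genes with the smallest adjusted p are named, and TJP1, tested protein-coding genes within 500 kb of USP53 and some other genes there. PSMD2 is named outside this rule, after its value was seen, and some genes of these lists are not reported here. Alternatives were other scalings and filters, DESeq2 1.42.0, limma-voom 3.58.1, a replicate block, and leaving out each library. Intervals and floors cover counting error or replicate spread only.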

Additional observations from a re-analysis of the deposited data

How the results depend on the processing

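The count of USP members past the threshold stayed between 19 and 20 over the 13 alternatives, and 15 of the 20 calls held in every one. The other 5 (USP19, USP25, USP35, USP44 and USP48) were lost without 1 or another single library. Leaving out each library gave 4113 to 4608 genes in all and 19 to 20 USP members. It gave 9 to 13 genes of the other deubiquitinase families and USP-like genes, 4 to 7 partner genes and 3 to 7 ubiquitin, E1 and ISG15 genes. MEF2C hairpin replicate 3, with the most reads aligned to several places, left 20 members when omitted. A replicate block gave 4892 genes and 20 members. Same-numbered libraries did not deviate together (correlations of -0.0135, -0.0137 and -0.00314), so the numbers were not taken as pairs. TMM factors were 1.011 to 1.018 in MEF2C hairpin and 0.9796 to 0.9879 in scramble libraries, so that they split by group. The median of all tested genes was 0.0041 under TMM, 0.0047 under DESeq2 size factors and 0.0147 under upper-quartile scaling. That of the tested members was -0.0588, -0.0582 and -0.0481 in the same order. Under upper-quartile scaling 50.9% of all calls were higher, against 46.8% under TMM. No member reversed among called values. Depth limits USP53 little, at 72 reads or more per library, but USP50, at 11 to 35 reads, could not show a small change.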

Other observations

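Some genes of the ubiquitin system were listed with almost no reads. UBB, 1 of the polyubiquitin genes, averaged 0.252 ± 0.0345 CPM in MEF2C hairpin and 0.184 ± 0.164 CPM in scramble libraries (SD, n = 3 each). The deubiquitinase genes YOD1 and MINDY4 were listed at 0 reads in all 6 libraries, as were UCHL1, OTUD6A and ATXN3L. Reads shared between genes can be left out in counting, and the part of this in these values was not tested.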
